A study of Mus musculus with 28 samples.

Results

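The transcripts described here are those that, among the 3 mouse cell lines of the study, were found almost only in the MLg lung fibroblasts. They were chosen by measured levels: a mean of at least 20 CPM (the count of a gene divided by the library total in M) over the 4 libraries of MLg alone, and a mean of at most 0.2 CPM in both EO771 alone and C2C12 alone. Symbols starting with Hox or Col were left out, which set aside 2 genes that met the levels, Hoxb9 and Hoxb8. The rule left 28 genes of the 55536 in the count tables, or of the 7525 that reached 20 CPM in MLg alone. Their levels in the 3 lines grown alone are therefore given as a description and were not tested.

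Polyadenylated RNA was sequenced from 28 libraries, 4 in each of 7 groups: MLg with EO771, EO771 with MLg, C2C12 with EO771, EO771 with C2C12, MLg alone, EO771 alone and C2C12 alone. The name before "with" is the line whose RNA was taken, and the name after it is the partner in a direct co-culture. MLg is a mouse lung fibroblast line, EO771 a mouse breast cancer line, and C2C12 a mouse muscle line kept here as myotubes. All cells were labelled wild type. Each line is a single established line, so the values say what these lines held, not what lung fibroblasts hold in general. The sources used here give neither the method that separated the lines of a co-culture nor whether replicates were separate cultures, so p-values measure the spread between libraries, which may be technical.

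Fibroblasts build and remodel the extracellular matrix, and fibroblasts from different parts of the body keep different sets of developmental transcription factors, the HOX code being the best known. T-box, GATA and forkhead factors act in the mesenchyme of the developing lung and heart. Paired-box factors and sine oculis homeobox factors are known mainly from neural crest, muscle, eye and brain.

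The MLg libraries carried most fibroblast markers. Of 20 fibroblast marker genes, 16 reached 5 CPM in MLg alone, among them Pdgfra, a growth factor receptor gene, at 1614 CPM in MLg with EO771 and 1492 CPM in MLg alone. Thy1 and Fap, both common fibroblast markers, were at 0 and 0.382 CPM in MLg with EO771 and at 0.0467 and 0.225 CPM in MLg alone. Fbln1 and Cd34 were the others below 5 CPM in MLg alone, at 0.785 and 3.46 CPM. The summed level of the fibroblast list was higher in C2C12 alone (33273 to 42032 CPM) than in MLg alone (19955 to 23519 CPM). None of 10 endothelial, 10 lung epithelial or 12 skeletal muscle markers reached 5 CPM in MLg alone. Markers of other cell types that did were 5 of 14 for smooth muscle and pericytes (Acta2, a smooth muscle actin gene, highest at 343 CPM in MLg with EO771 and 477 CPM in MLg alone), 2 of 10 for macrophages and leukocytes (Cd14 and Cd68), 2 of 10 for breast cancer epithelium (Krt7 and Gata3) and 1 of 10 for mesothelium (Msln, at 83.0 CPM in MLg with EO771 and 87.2 CPM in MLg alone). On a list of 20 lung mesenchyme transcription factors, 12 reached 5 CPM in MLg alone and 4 were under 0.2 CPM. Of 12 alveolar and lipofibroblast markers, 5 reached 5 CPM in MLg alone and 6 were under 0.2 CPM. Among the 28 transcripts none was on the fibroblast marker list, and 1, Tbx5, was on that of the lung mesenchyme factors. The name MLg-specific is therefore used only as against EO771 and C2C12.

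Libraries of MLg with EO771 held 33.8 to 57.5 M counts each and those of MLg alone 61.7 to 69.7 M. The range was 33.2 to 48.3 M for EO771 with MLg and 27.6 to 47.4 M for EO771 with C2C12. In 5 libraries every count was even. These were MLg with EO771 R5-1 and R6-1, and EO771 with C2C12 R3-1, R5-1 and R6-1. The summed level of 84 EO771-specific genes, as a percent of their summed mean level in EO771 with MLg, was 13.0%, 6.12%, 6.54% and 8.70% in MLg with EO771 R5-1, R6-1, R6-2 and R7-1, and 0.0780% to 0.137% in the libraries of MLg alone. These 84 genes had a mean of at least 20 CPM in EO771 alone and at most 0.2 CPM in MLg alone. Their low percent in MLg alone was therefore fixed by that choice. One library of MLg alone, R3-2, stood apart from the other 3. It held the highest or the lowest of the 4 values for 22 of the 28 transcripts, against 71.6% of the 7525 genes at 20 CPM or more, and its median distance from the mean of the other 3 was 0.34 on the log2 scale for the 28 and 0.13 for the 7525. Serpina3h was at 166 CPM in it and at 75.4 to 87.0 CPM in the others, and Bhlhe22 at 18.5 CPM against 35.9 to 38.7 CPM. Values below are listed in the order R5-1, R6-1, R6-2 and R7-1 for the co-cultures with MLg, and R3-2, R5-2, R6-1 and R6-2 for MLg alone.

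**Figure D1:**
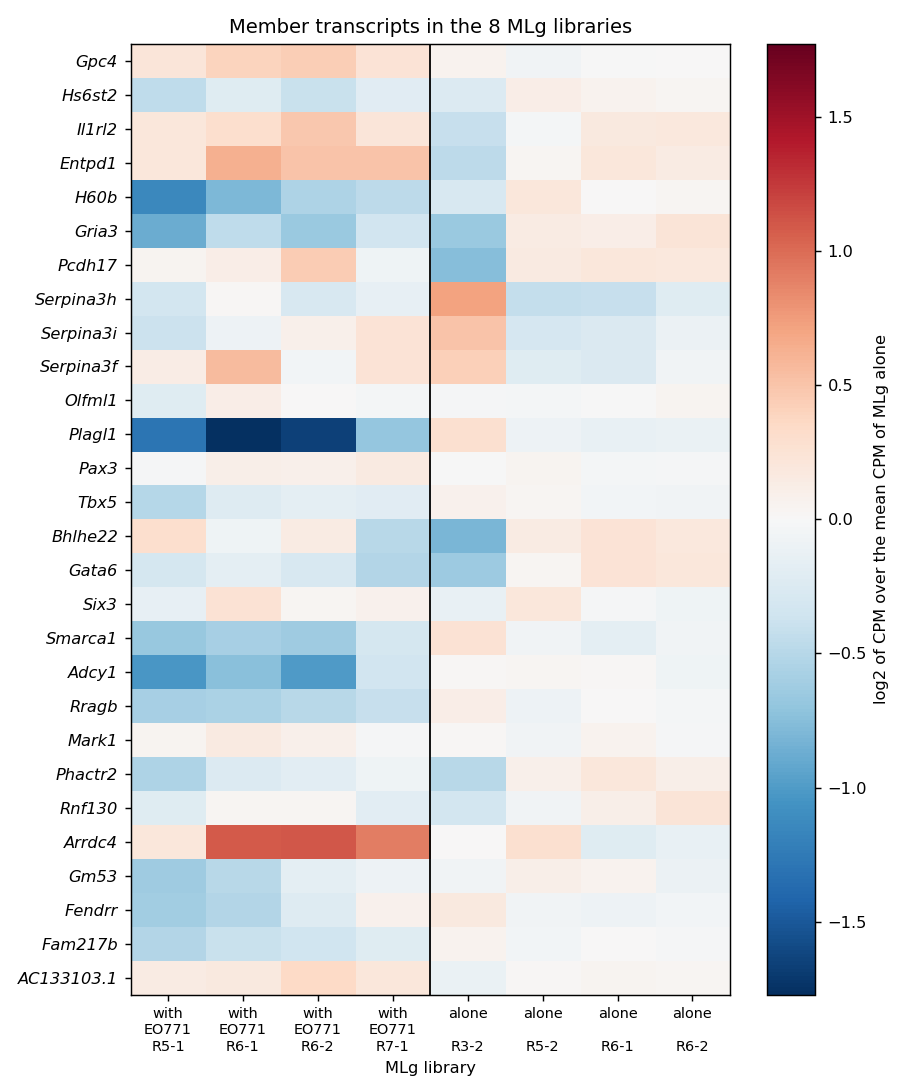
Colour gives the log2 of each library's CPM over the mean CPM of MLg alone, for the 28 transcripts (down) in 4 libraries of MLg with EO771 (left of the line) and 4 of MLg alone (right). R3-2 of MLg alone departs from the other 3 in both directions, as for Serpina3h at 166 CPM, while Plagl1 is low in all 4 libraries of MLg with EO771.

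The 28 transcripts came from 25 protein-coding genes, a lincRNA (Gm53), a processed transcript (Fendrr) and a transcribed pseudogene (Serpina3h) in the GENCODE M21 annotation of GRCm38. Compared per kilobase of exon, Gpc4, which encodes a heparan sulfate proteoglycan of the cell surface, was at 73.4 CPM per kb in MLg with EO771 and at 58.7 CPM per kb in MLg alone. Serpina3h was at 62.6 and 70.6 CPM per kb in the same groups, and Olfml1, which encodes a secreted protein with an olfactomedin domain, at 44.9 and 45.8 CPM per kb. At the other end stood Adcy1, which encodes an adenylyl cyclase that makes cyclic AMP, at 1.26 and 2.11 CPM per kb. The median over the 28 was 9.94 CPM per kb in MLg with EO771 and 11.1 CPM per kb in MLg alone.

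**Figure D2:**
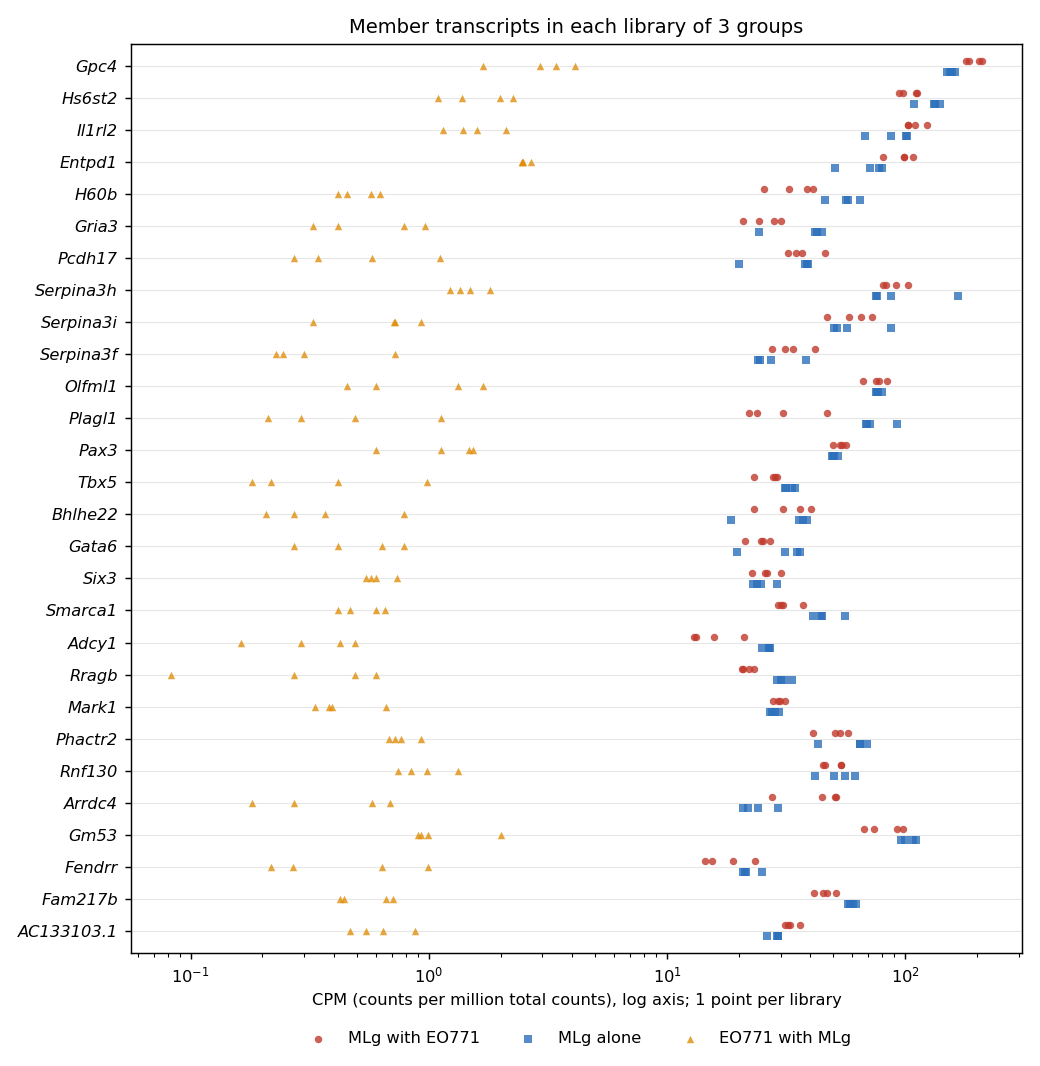
Each point is the CPM of a transcript in 1 library, on a log axis, for MLg with EO771 (circles), MLg alone (squares) and EO771 with MLg (triangles). Levels in the MLg groups lie far above those in EO771 with MLg, where means run from 0.341 to 3.03 CPM.

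Several of the 28 lie close together. On chromosome 12, Serpina3f, Serpina3h and Serpina3i fall in 1 cluster of serine protease inhibitor genes, with gaps of 9.45 to 42.0 kb between them. Serpina3g, which lies between Serpina3f and Serpina3h, was at 253 CPM in MLg with EO771 and 254 CPM in MLg alone, and at 1.38 CPM in C2C12 alone it missed the rule. On the X chromosome, Gpc4 and Hs6st2, which encodes an enzyme that sulfates heparan sulfate, lie 371 kb apart. Plagl1 and Phactr2 lie 76.0 kb apart on chromosome 10. The X chromosome held 5 of the 28 (17.9%), namely Gpc4, Hs6st2, Smarca1, Gria3 and Rragb, against 3.53% of the 7525 genes at 20 CPM or more in MLg alone. No test was made of these positions.

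Several neighbours outside the set were also detected in MLg. Gm53 lies 6589 bases from Hoxb9, which was at 99.0 CPM in MLg with EO771 and 118 CPM in MLg alone. Ppp1r3d lies on the opposite strand 52 bases from Fam217b and was at 11.7 and 15.1 CPM in the same groups, with no count in EO771 alone or C2C12 alone. Foxf1, a forkhead factor gene of lung mesenchyme, lies 1276 bases from Fendrr, a long noncoding RNA of the lateral plate mesoderm, and was at 27.6 and 26.8 CPM, but at 1.48 CPM in C2C12 alone it missed the rule as Serpina3g did. Six3os1, at 12.8 and 18.1 CPM, overlaps Six3 on the other strand. Whether counting used strand is not stated, so reads of Six3 and Six3os1, and of Gata6 and its antisense neighbour 1010001N08Rik, cannot be told apart with certainty. H60b overlaps Raet1e on the same strand, and the Serpina3 genes are close copies. AC133103.1 lies on a scaffold outside the assembled chromosomes. The counts of H60b, the Serpina3 genes and AC133103.1 are therefore uncertain too.

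The edges of the rule were close for a few genes. Just inside the level in MLg alone were Fendrr at 22.2, Arrdc4 at 24.0 and Six3 at 25.1 CPM, and just outside were Bend4 at 18.6 and Six3os1 at 18.1 CPM. Just inside the low level were Fendrr at 0.196 CPM in C2C12 alone, Entpd1 at 0.169 CPM in EO771 alone and H60b at 0.158 CPM in C2C12 alone. Just outside were Cpa6 at 0.233 CPM in C2C12 alone, and Grb10 and Aox3 at 0.235 and 0.238 CPM in EO771 alone. Grb10 was at 502 CPM in MLg alone.

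The first comparison asked how these transcripts changed in MLg cells that had been kept with EO771. Most were not called. The libraries of MLg alone had also chosen the transcripts, so only MLg with EO771 was independent of the rule. Of the 28, all tested, 3 were higher (Arrdc4, Entpd1 and Gpc4) and 6 lower (Plagl1, Adcy1, H60b, Smarca1, Rragb and Fam217b) in MLg with EO771 than in MLg alone, and 19 were not called (edgeR quasi-likelihood test, Benjamini-Hochberg adjusted p under 0.05). Over all 16823 genes tested, 9.89% were called higher and 4.81% lower. Among the 7525 genes at 20 CPM or more in MLg alone these shares were 9.28% and 6.96%. The median log2 fold change of the 28 was -0.10, against 0.0087 for those 7525 genes and -0.0049 for all 16823. Their summed level was 1316, 1530, 1535 and 1542 CPM in MLg with EO771, and 1553, 1563, 1578 and 1588 CPM in MLg alone. The EO771-specific genes were at 13.0%, 6.12%, 6.54% and 8.70% in the same libraries of MLg with EO771. A link between these percents and the sums was not tested. In bulk libraries such as these, fewer cells of a type and less RNA per cell cannot be told apart.

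The counts of calls moved with the processing. With EO771 counts subtracted from MLg with EO771 in proportion to the percents of the EO771-specific genes, 6 were higher and 4 lower, the median log2 fold change was 0.047, and the calls of Fam217b and Smarca1 ended (adjusted p = 0.162 and 0.0973). The 28 were chosen as low in EO771 alone, so the subtraction takes little from them and made a rise likely. The higher calls it added, Il1rl2, Pax3 and AC133103.1, are therefore no support of their own. Without MLg alone R3-2, 4 were higher and 10 lower, with Hs6st2, Phactr2, Gria3 and Gata6 added to the lower ones and Serpina3f to the higher ones. Leaving out MLg with EO771 R7-1 also gave 10 lower, with Hs6st2, Gm53, Gria3 and Fendrr added. In a fit of all 28 libraries with a shared spread, only Plagl1 kept its call, while the log2 fold changes of the other 8 kept their direction and hardly moved, as for Arrdc4 at 0.86, Adcy1 at -0.75, H60b at -0.71 and Rragb at -0.51.

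**Figure D3:**
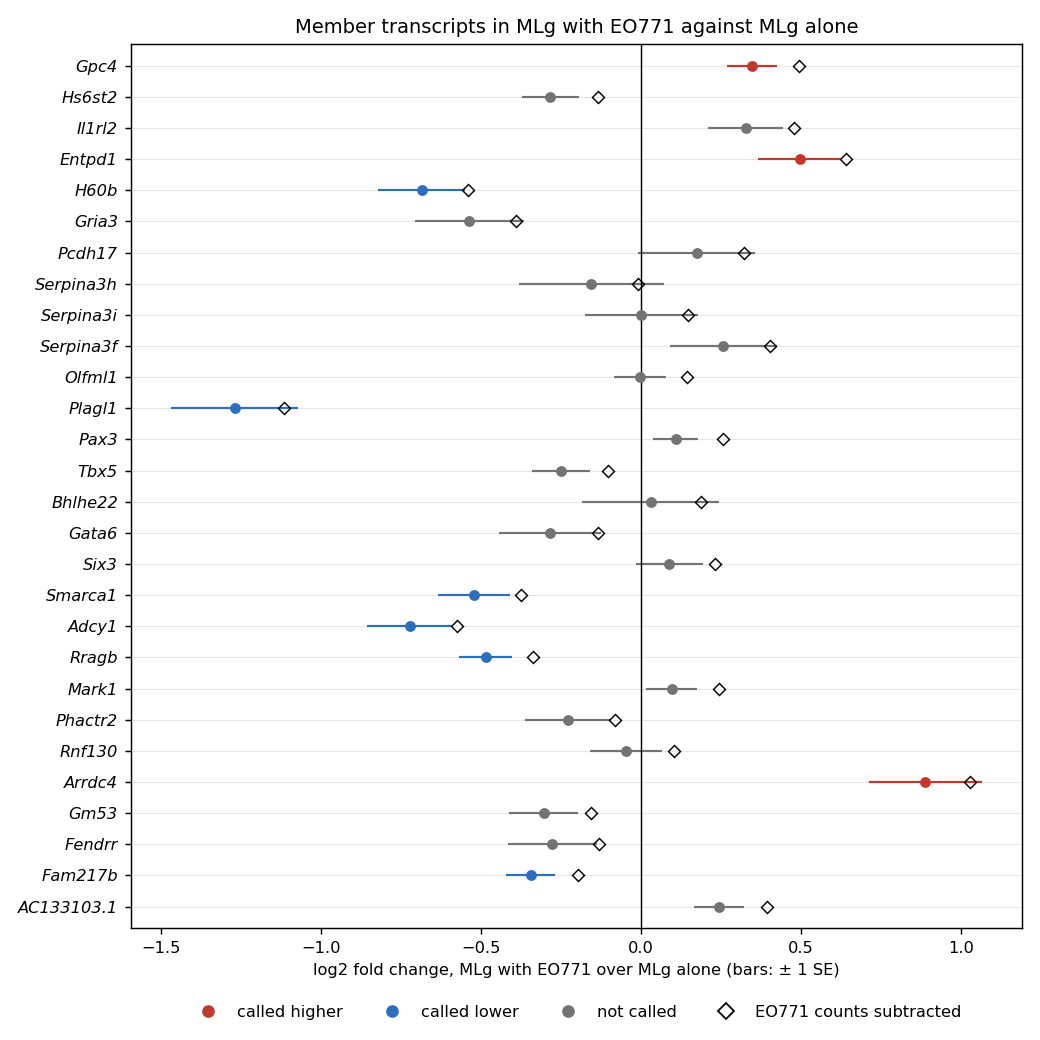
Points give the log2 fold change of MLg with EO771 over MLg alone with its standard error as a bar, and open diamonds the value after EO771 counts were subtracted. Plagl1 lies farthest down at -1.27 and Arrdc4 farthest up at 0.89. The subtraction moves every transcript up, a direction made likely by choosing transcripts that were low in EO771 alone.

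Of the 7 transcription and chromatin genes, 2 fell and 5 were not called. Plagl1 encodes a zinc finger transcription factor from an imprinted gene known for slowing cell growth (ENSMUSG00000019817, chromosome 10, 13060504 to 13131694, plus strand). It was at 30.8, 22.1, 23.8 and 46.9 CPM in MLg with EO771, against 92.1, 71.1, 68.7 and 69.5 CPM in MLg alone. The co-cultured values were all below the values alone, and R7-1 was the highest of them. Plagl1 fell 2.41-fold (log2 fold change -1.27 ± 0.198 SE, adjusted p = 0.00103), and this call held in all 16 alternatives tried, with log2 fold changes from -1.54 to -1.11. Smarca1, which encodes an ISWI chromatin remodelling ATPase (ENSMUSG00000031099, chromosome X, 47809368 to 47892974, minus strand), was at 29.2, 30.8, 30.0 and 37.4 CPM in MLg with EO771, against 55.7, 44.6, 41.0 and 44.4 CPM in MLg alone. The groups did not overlap, and Smarca1 fell by 0.52 on the log2 scale (SE 0.113, adjusted p = 0.00869).

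The developmental factors Pax3, Tbx5, Six3, Bhlhe22 and Gata6 were not called. Pax3, a paired-box factor gene of neural crest and muscle precursors, was at 49.7, 54.2, 53.5 and 56.3 CPM in MLg with EO771, against 50.3, 52.2, 49.3 and 49.8 CPM in MLg alone (log2 fold change 0.11 ± 0.0691 SE, adjusted p = 0.321). Its values overlapped between the groups and varied little within them, and with EO771 counts subtracted Pax3 was called higher, at a log2 fold change of 0.26 (adjusted p = 0.0469). Tbx5, a T-box factor gene of heart, forelimb and lung, was at 23.1, 27.9, 29.0 and 28.5 CPM in MLg with EO771, against 34.5, 33.5, 31.6 and 31.4 CPM in MLg alone. All co-cultured values of Tbx5 were below those alone, but the difference was not called (log2 fold change -0.25 ± 0.0906 SE, adjusted p = 0.0871). Six3, a homeobox factor gene of the forebrain and eye, averaged 26.2 ± 3.01 CPM in MLg with EO771 and 25.1 ± 2.60 CPM in MLg alone (SD, n = 4 each, adjusted p = 0.616). Bhlhe22, a neuronal bHLH factor gene, averaged 32.6 ± 7.31 and 32.6 ± 9.43 CPM in the same groups, but its log2 fold change was 0.030 with R3-2 of MLg alone and -0.16 without it. Gata6, a zinc finger factor gene of heart and endoderm, averaged 24.6 ± 2.43 CPM in MLg with EO771 and 30.6 ± 7.56 CPM in MLg alone (adjusted p = 0.258), and it was called lower without R3-2. Of the 20 lung mesenchyme factors, 16 were tested, 0 were higher and 1 (Wt1) was lower, with a median log2 fold change of 0.028. The fibroblast markers had 4 higher (Dpt, Ly6a, Postn and Loxl1) and 0 lower of 19 tested, with a median of 0.099. The breast cancer epithelial markers had 2 higher (Krt8 and Sprr1a) and 1 lower (Krt7) of 4 tested. For all 16823 genes tested, the shares called were 9.89% higher and 4.81% lower, and no list was tested as a set. The summed level of the breast cancer epithelial markers was 28.3 to 53.4 CPM in MLg with EO771, against 36.1 to 40.4 CPM in MLg alone. Krt8 was at 9.31 CPM in MLg with EO771, 0.297 CPM in MLg alone and 101 CPM in EO771 with MLg. Sprr1a was at 2.34, 0.158 and 21.8 CPM in the same groups. The source of the Krt8 and Sprr1a RNA in MLg with EO771 was not tested.

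The heparan sulfate pair split. Gpc4 (ENSMUSG00000031119, chromosome X, 52053021 to 52165252, minus strand) was at 179.9, 204, 210.1 and 185 CPM in MLg with EO771, against 162, 149.7, 154 and 157 CPM in MLg alone. Every co-cultured value was above every value alone, and Gpc4 rose 1.27-fold (log2 fold change 0.35 ± 0.0786 SE, adjusted p = 0.0115). Hs6st2 was at 94.0, 111, 98.3 and 112 CPM in MLg with EO771, against 109, 140.2, 134 and 132 CPM in MLg alone. The R3-2 value alone lay within the co-cultured range, and Hs6st2 narrowly missed the threshold (log2 fold change -0.28 ± 0.0893 SE, adjusted p = 0.0527). Without R3-2 it was called lower.

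Among the 5 other surface proteins, 1 rose, 1 fell and 3 were not called. Entpd1 encodes CD39, an ectonucleotidase that breaks down extracellular ATP on the way to adenosine (ENSMUSG00000048120, chromosome 19, 40612366 to 40741602, plus strand). It was at 80.4, 108, 98.9 and 99.0 CPM in MLg with EO771, against 50.6, 71.2, 79.9 and 77.4 CPM in MLg alone. The groups missed each other narrowly, R5-1 of the co-culture being just above R6-1 alone, and Entpd1 rose 1.41-fold (log2 fold change 0.50 ± 0.130 SE, adjusted p = 0.0241). Its call ended without MLg alone R5-2 (log2 fold change 0.50, adjusted p = 0.0564) or without MLg with EO771 R6-1 (log2 fold change 0.43, adjusted p = 0.0791). H60b, which encodes a ligand of the NKG2D receptor of natural killer cells (ENSMUSG00000075297, chromosome 10, 22158586 to 22288849, plus strand), was at 25.6, 32.4, 38.8 and 41.0 CPM in MLg with EO771, against 46.3, 64.9, 56.6 and 57.6 CPM in MLg alone. All co-cultured values of H60b were below those alone, and it fell 1.61-fold (log2 fold change -0.69 ± 0.135 SE, adjusted p = 0.00509).

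Il1rl2, which encodes the receptor for interleukin-36, was at 103, 109.8, 124 and 103 CPM in MLg with EO771, against 67.6, 87.1, 101 and 102 CPM in MLg alone. The groups did not overlap, yet the difference was not called (log2 fold change 0.33 ± 0.117 SE, adjusted p = 0.0810). With EO771 counts subtracted, Il1rl2 was called higher, at a log2 fold change of 0.48 (adjusted p = 0.0334). Its neighbour Il1r1, the interleukin-1 receptor gene, was called higher, at 143 CPM in MLg with EO771 and 103 CPM in MLg alone (adjusted p = 0.00531). Gria3, which encodes a subunit of AMPA glutamate receptors, was at 20.8, 28.2, 24.4 and 30.2 CPM in MLg with EO771, against 24.3, 42.6, 41.8 and 44.8 CPM in MLg alone. The R3-2 value of Gria3 lay inside the co-cultured range and the other 3 lay above it, and Gria3 was not called with all libraries (log2 fold change -0.54 ± 0.170 SE, adjusted p = 0.0528) and was called lower without R3-2. Pcdh17, which encodes a protocadherin of cell adhesion, averaged 37.5 ± 6.12 CPM in MLg with EO771 and 33.9 ± 9.27 CPM in MLg alone (SD, n = 4 each, adjusted p = 0.566).

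None of Serpina3i, Serpina3f, the pseudogene Serpina3h and Olfml1 was called. Serpina3i was at 47.1, 57.9, 65.5 and 72.8 CPM in MLg with EO771, against 86.9, 50.1, 51.7 and 57.2 CPM in MLg alone (log2 fold change 0.0020 ± 0.177 SE, adjusted p = 0.996). Serpina3h was at 80.9, 103, 83.4 and 91.8 CPM in MLg with EO771, against 166, 75.4, 76.3 and 87.0 CPM in MLg alone (log2 fold change -0.15 ± 0.225 SE, adjusted p = 0.694), and Serpina3f averaged 33.6 ± 6.13 and 28.6 ± 6.67 CPM in the same groups. All 3 were highest, among the libraries of MLg alone, in R3-2, and without it the log2 fold changes of Serpina3i, Serpina3h and Serpina3f were 0.23, 0.21 and 0.45. Olfml1 was at 66.3, 83.7, 77.3 and 75.3 CPM in MLg with EO771, against 76.4, 75.5, 77.0 and 79.9 CPM in MLg alone (log2 fold change -0.0034 ± 0.0814 SE, adjusted p = 0.984), the smallest difference relative to its error of the 28 after Serpina3i.

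The promoter sequences of Serpina3f and Serpina3i are printed to show how alike these neighbouring copies are. They are given 5′ to 3′ from RefSeq on GRCm38.p6, from 250 bases before to 50 bases after the start, with capitals for the bases that are identical in an alignment of the 2. Of 269 aligned bases 224 were identical (83.3%), and the longest identical run was 19 bases.
Serpina3f, chr12:104214294-104214593, plus strand: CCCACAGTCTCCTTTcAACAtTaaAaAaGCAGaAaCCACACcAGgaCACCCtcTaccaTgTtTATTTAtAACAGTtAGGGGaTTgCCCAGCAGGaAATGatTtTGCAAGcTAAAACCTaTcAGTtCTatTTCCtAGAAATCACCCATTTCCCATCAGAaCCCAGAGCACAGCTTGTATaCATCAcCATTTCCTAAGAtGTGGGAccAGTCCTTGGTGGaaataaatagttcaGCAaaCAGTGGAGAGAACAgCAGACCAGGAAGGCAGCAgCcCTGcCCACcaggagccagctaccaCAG
Serpina3i, chr12:104262872-104263171, plus strand: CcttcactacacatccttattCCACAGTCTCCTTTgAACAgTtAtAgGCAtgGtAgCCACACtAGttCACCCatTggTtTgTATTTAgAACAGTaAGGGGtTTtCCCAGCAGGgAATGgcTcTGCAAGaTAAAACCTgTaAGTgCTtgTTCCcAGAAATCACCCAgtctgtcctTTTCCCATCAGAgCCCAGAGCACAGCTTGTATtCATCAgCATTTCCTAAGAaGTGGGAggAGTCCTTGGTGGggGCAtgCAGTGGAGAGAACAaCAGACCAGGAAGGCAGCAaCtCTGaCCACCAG

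Of the 6 signalling and other cell proteins, 1 rose, 2 fell and 3 were not called. Arrdc4 encodes an α-arrestin, a family that helps move membrane proteins such as glucose transporters into the cell (ENSMUSG00000042659, chromosome 7, 68736995 to 68749241, minus strand). It was at 27.6, 50.9, 51.3 and 44.9 CPM in MLg with EO771, against 24.2, 29.1, 20.8 and 21.9 CPM in MLg alone. The R5-1 co-culture value lay below the R5-2 value alone, so the groups overlapped, and the other 3 co-cultured values were far above. Arrdc4 rose 1.85-fold (log2 fold change 0.89 ± 0.177 SE, adjusted p = 0.00532). Adcy1 (ENSMUSG00000020431, chromosome 11, 7063489 to 7178506, plus strand) was at 13.0, 15.8, 13.2 and 21.0 CPM in MLg with EO771, against 26.7, 27.1, 26.7 and 25.1 CPM in MLg alone. The co-cultured values were all lower, R7-1 least so, and Adcy1 fell 1.65-fold (log2 fold change -0.72 ± 0.133 SE, adjusted p = 0.00330).

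Rragb encodes a Rag GTPase that signals amino acid supply to mTORC1 (ENSMUSG00000041658, chromosome X, 153139981 to 153171943, plus strand). It was at 20.6, 20.9, 22.0 and 23.2 CPM in MLg with EO771, against 33.4, 28.9, 31.1 and 30.0 CPM in MLg alone. Its groups were well apart and narrow, and Rragb fell 1.40-fold (log2 fold change -0.49 ± 0.0826 SE, adjusted p = 0.00194). Phactr2, which encodes a regulator of protein phosphatase 1 and actin, was at 41.2, 51.0, 53.0 and 57.4 CPM in MLg with EO771, against 43.2, 64.4, 69.5 and 64.7 CPM in MLg alone (log2 fold change -0.23 ± 0.134 SE, adjusted p = 0.282). Only its R3-2 value alone lay inside the co-cultured range. Rnf130, which encodes a RING-type ubiquitin ligase, was at 45.3, 54.0, 53.8 and 46.2 CPM in MLg with EO771, against 42.0, 50.3, 56.1 and 61.4 CPM in MLg alone (log2 fold change -0.045 ± 0.113 SE, adjusted p = 0.831), with overlapping groups. Mark1, which encodes a kinase that acts on microtubule-associated proteins, averaged 29.6 ± 1.51 CPM in MLg with EO771 and 28.2 ± 1.08 CPM in MLg alone (SD, n = 4 each, adjusted p = 0.456).

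Neither noncoding RNA was called. Gm53 was at 67.1, 74.2, 92.0 and 98.0 CPM in MLg with EO771, against 99.6, 111, 108 and 96.3 CPM in MLg alone (log2 fold change -0.30 ± 0.107 SE, adjusted p = 0.0783). Its neighbour Hoxb9 had a log2 fold change of -0.23 and was called lower (adjusted p = 0.0260). Fendrr was at 14.4, 15.5, 18.9 and 23.5 CPM in MLg with EO771, against 25.1, 21.3, 21.0 and 21.5 CPM in MLg alone, where R7-1 of the co-culture lay among the values alone (log2 fold change -0.28 ± 0.138 SE, adjusted p = 0.205). Of the genes with no role named here, Fam217b (ENSMUSG00000070476, chromosome 2, 178414524 to 178424428, plus strand) was at 41.5, 45.4, 46.8 and 51.2 CPM in MLg with EO771, against 62.2, 57.4, 60.2 and 58.8 CPM in MLg alone. Its groups did not overlap and it fell 1.27-fold (log2 fold change -0.34 ± 0.0769 SE, adjusted p = 0.0103), a call that ended after the EO771 subtraction. Ppp1r3d on the opposite strand had a log2 fold change of -0.36 and was not called (adjusted p = 0.0727). AC133103.1 averaged 33.1 ± 2.21 CPM in MLg with EO771 and 28.4 ± 1.47 CPM in MLg alone (SD, n = 4 each), without overlap and just short of a call (adjusted p = 0.0540), and it was called higher with EO771 counts subtracted (log2 fold change 0.39, adjusted p = 0.0125).

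RefSeq promoter windows of 300 bases were matched for 19 of the 28. Their median ratio of observed to expected CpG was 0.696, against 0.389 over all 27025 windows in the table. Of the 19, 57.9% had a ratio of at least 0.6, against 36.5% of all windows. The full set of windows was not limited to genes expressed in MLg. No windows of genes at a like level were compared, here or for the motifs below. The E-box CACGTG, which reads the same on both strands, was found in 4 of the 19 (21.1%), against 7.24% of all windows. TATAAA, searched on both strands, was in 3 of the 19 (15.8%), against 14.2%. These are matches of letters, not binding sites. The 4 windows with CACGTG belonged to Arrdc4, which rose, and to Plagl1, Adcy1 and Rragb, which fell. They are printed 5′ to 3′ on GRCm38.p6, with CACGTG in capitals. The windows of Gpc4, Entpd1, Smarca1 and Fam217b, which were also called, held no CACGTG. A link between CACGTG and the calls was not tested. The Plagl1 window lies at a start inside the annotated gene. Rragb had 3 copies.
Arrdc4, chr7:68749189-68749488, minus strand: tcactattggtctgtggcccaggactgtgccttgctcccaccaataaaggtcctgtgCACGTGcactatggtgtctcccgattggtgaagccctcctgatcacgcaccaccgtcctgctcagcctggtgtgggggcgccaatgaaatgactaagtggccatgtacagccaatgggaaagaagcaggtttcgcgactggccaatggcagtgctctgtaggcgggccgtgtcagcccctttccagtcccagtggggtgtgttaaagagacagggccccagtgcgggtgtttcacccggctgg
Plagl1, chr10:13090582-13090881, plus strand: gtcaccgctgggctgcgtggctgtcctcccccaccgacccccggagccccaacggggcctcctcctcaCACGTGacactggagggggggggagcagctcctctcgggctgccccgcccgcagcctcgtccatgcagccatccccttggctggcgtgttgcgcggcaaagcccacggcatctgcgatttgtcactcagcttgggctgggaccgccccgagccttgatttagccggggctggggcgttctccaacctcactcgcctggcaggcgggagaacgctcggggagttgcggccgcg
Adcy1, chr11:7063183-7063482, plus strand: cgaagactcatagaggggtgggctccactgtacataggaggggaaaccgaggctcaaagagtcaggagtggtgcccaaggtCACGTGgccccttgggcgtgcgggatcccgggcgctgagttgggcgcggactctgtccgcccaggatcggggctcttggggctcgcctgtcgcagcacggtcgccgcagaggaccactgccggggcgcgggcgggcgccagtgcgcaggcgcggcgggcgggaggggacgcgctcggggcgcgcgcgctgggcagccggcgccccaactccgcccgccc
Rragb, chrX:153139708-153140007, plus strand: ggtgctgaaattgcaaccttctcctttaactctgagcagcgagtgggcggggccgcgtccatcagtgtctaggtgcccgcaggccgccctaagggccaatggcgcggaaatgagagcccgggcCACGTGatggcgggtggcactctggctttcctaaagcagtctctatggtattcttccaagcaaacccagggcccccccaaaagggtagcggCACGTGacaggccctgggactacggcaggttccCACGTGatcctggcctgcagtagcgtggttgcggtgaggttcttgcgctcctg

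The next comparison asked how much of these transcripts was found in EO771 cells kept with MLg. All 28 had counts in each of the 4 libraries of EO771 with MLg, but at low levels, with means from 0.341 CPM (Adcy1) to 3.03 CPM (Gpc4). Their summed level in EO771 with MLg was 27.7, 23.1, 18.3 and 29.1 CPM for R5-1, R6-1, R6-2 and R7-1. It was 1.27 to 2.04 CPM in EO771 with C2C12 and 0.257 to 0.742 CPM in EO771 alone, the last of which the rule had fixed as low. As a percent of the sum in MLg with EO771, the sum in EO771 with MLg was 2.10%, 1.51%, 1.19% and 1.89% for the libraries of the same label, a mean of 1.67% ± 0.404 (SD, n = 4). The labels are not stated to mark a shared culture, and the ratio of the group means, which pairs no libraries, was 1.66%. The source of this RNA was not tested.

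Single transcripts lay around the same percent. The mean over the 4 labels was lowest for Arrdc4 at 0.963% and highest for Fendrr at 3.12%, with a median of 1.61% over the 28. By the ratio of group means these were 0.984% for Arrdc4 and 2.93% for Fendrr. Fendrr owed its place to R5-1 at 6.88%, and the other 3 were 1.74%, 1.15% and 2.71%. After Fendrr came Entpd1 at 2.64%, Gria3 at 2.51%, Six3 at 2.35% and Pax3 at 2.23%. After Arrdc4 came Serpina3i at 1.16%, Serpina3f at 1.17%, Fam217b at 1.21% and Bhlhe22 at 1.24%. The labels of 1 transcript could differ widely, for Gria3 from 1.34% to 4.63%. The counts behind them were small, 54 for Adcy1 and 98 for Six3 over the 4 libraries.

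**Figure D4:**
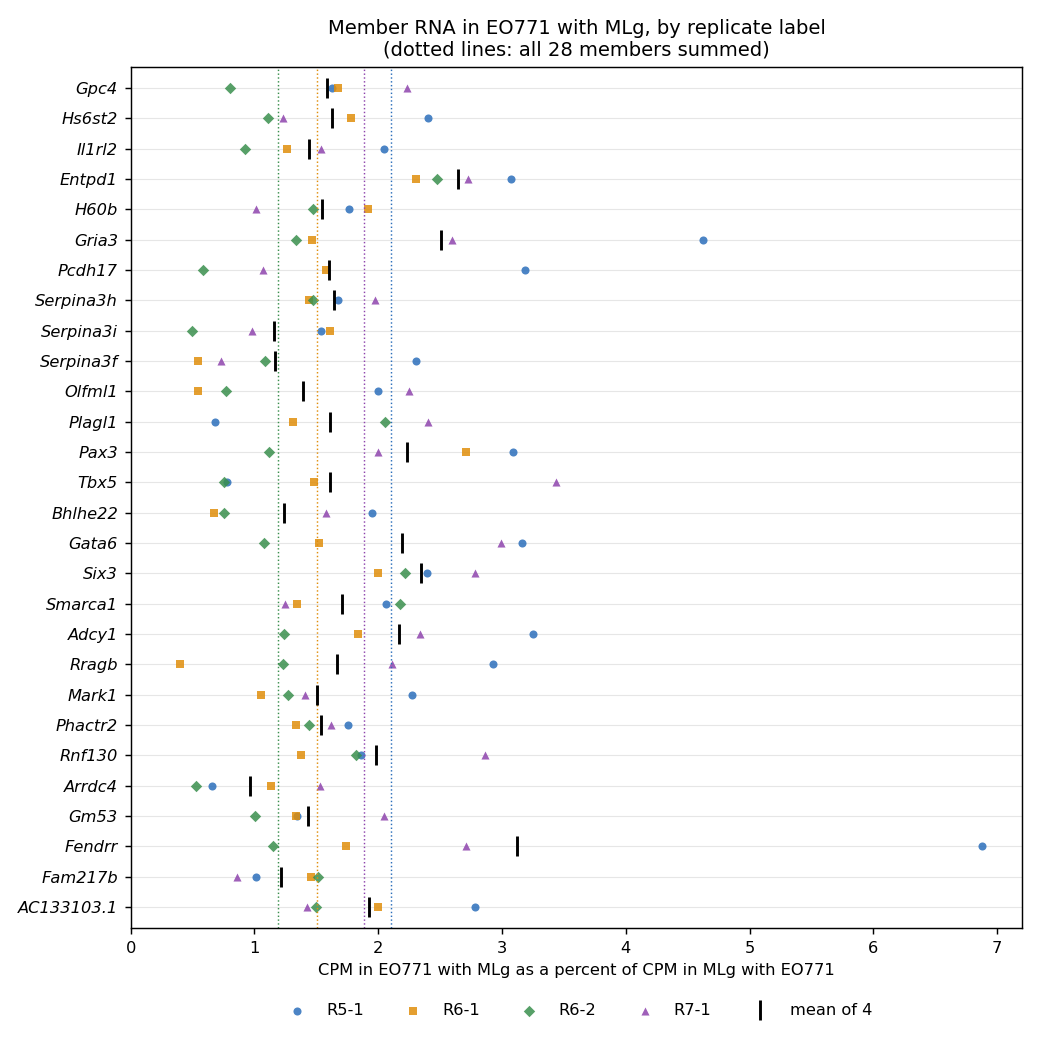
Points give CPM in EO771 with MLg as a percent of CPM in MLg with EO771 for each of 4 replicate labels, black bars their mean, and dotted lines the percent for the 28 summed. Most transcripts scatter around the dotted lines, the Entpd1 points have a mean of 2.64%, and Fendrr in R5-1 reaches 6.88%.

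Entpd1 averaged 1.12 CPM in EO771 with C2C12, where none of the other 27 averaged over 0.306 CPM. It was at 2.47, 2.48, 2.45 and 2.695 CPM in EO771 with MLg, 1.16, 0.886, 1.12 and 1.31 CPM in EO771 with C2C12 (R3-1, R5-1, R5-2 and R6-1) and 0.0587, 0.0513, 0.400 and 0.168 CPM in EO771 alone (R3-1, R3-2, R5-1 and R6-2). EO771 with MLg and EO771 with C2C12 did not overlap. The values in EO771 alone lay below both, but the rule had fixed their mean as low. C2C12 held 0.166 CPM of Entpd1 alone, also fixed as low by the rule, and 0.187 CPM with EO771. The source of this RNA in EO771 was not tested. Entpd1 was called higher in EO771 with MLg than in EO771 with C2C12, by 2.43-fold (log2 fold change 1.28 ± 0.262 SE, adjusted p = 0.00310). This was the smallest fold among the called transcripts of that comparison. Next to it stood AC133103.1, at 0.873, 0.641, 0.545 and 0.466 CPM in EO771 with MLg and 0.524, 0.422, 0.0724 and 0.207 CPM in EO771 with C2C12, overlapping groups that were not called (adjusted p = 0.135). H60b averaged 0.515 ± 0.0967 CPM in EO771 with MLg and 0.0934 ± 0.0750 CPM in EO771 with C2C12 (SD, n = 4 each). It had 6, 6, 2 and 0 counts in EO771 with C2C12 R3-1, R5-1, R5-2 and R6-1. H60b passed the filter on low counts through EO771 with MLg, where it was high, so its test is no support of its own.

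In the test of EO771 with MLg against EO771 with C2C12, 18 of the 28 passed the filter on low counts, and 17 of them were called higher, against 11.0% of the 15301 genes tested. The transcripts that passed did so mostly through the group where they were high, so this count is no support of its own. The other 10 were not tested. In EO771 with C2C12, 17 of the 28 had no count in any of the 4 libraries. Against a floor of 3 counts over that group (0.0217 CPM), Hs6st2 was at least 77.3-fold higher in EO771 with MLg, Serpina3h at least 67.8-fold and Rragb, the lowest of the 17, at least 16.7-fold. Floors cover counting error only. Every count was even in EO771 with C2C12 R3-1, R5-1 and R6-1. A floor of 3 counts may therefore be too low for this group, and the folds smaller than given.

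All 28 were higher in MLg with EO771 than in EO771 with MLg, where 38.2% of the 16193 genes tested were. All 28 were also higher in MLg with EO771 than in C2C12 with EO771, against 26.7% of 16441 genes. The choice of transcripts made both counts likely. In C2C12 with EO771 the summed level was 1.65 to 2.21 CPM, and 8 of the 28 had no count in any library. Gm53 was among these 8, at least 5169-fold higher in MLg with EO771 against a floor of 3 counts over the group (0.0160 CPM).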

How the data were processed

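The deposited values were raw counts per gene, 1 table per library, which the authors had not normalized. RNA was prepared with a stranded mRNA kit, per the labels' protocols. STAR 2.7.10a, Subread 2.0.1, featureCounts, fastp and DESeq2 are listed in the submitters' processing notes with no role. The genome build and annotation, and whether strand was used, were not given in the sources used here. Every one of the 55536 gene IDs was found in GENCODE M21 (GRCm38), which gave symbols, positions and exon lengths. CPM was computed from the counts and the library totals.

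Each comparison was fitted on the 8 libraries of its 2 groups with edgeR 4.0.16 in R 4.3.3 (TMM, filterByExpr with minimum count 10 and minimum total 15, quasi-likelihood F test, Benjamini-Hochberg over all genes tested). A gene was called at an adjusted p under 0.05, and errors are standard errors of the log2 fold change or standard deviations over 4 libraries. On simulated counts for MLg with EO771 against MLg alone, 69% of 2-fold and 84% of 4-fold changes were recovered. Among 16823 genes there were 10 false calls. The changed genes were drawn at all levels, and no library departed as a whole. All calls among the 28 but Plagl1 were under 2-fold, so these rates do not describe them. Alternatives were DESeq2 1.42.0, other size factors, no filter, halved even counts, a fit of all libraries, EO771 counts subtracted, other member levels, a replicate block and each library left out. Leaving out 2 libraries together and a ratio of group means were chosen after seeing the data. The 28 transcripts, the gene lists and the rule for naming genes were chosen with earlier results of these data known. The rule gave per-library values for the 15 highest in MLg alone, for calls without overlap, for the 5 highest and 5 lowest percents in EO771 with MLg, for genes next to the thresholds and for listed markers, and allowed every member to be named; 1 gene next to a threshold is not reported here. Promoter windows came from RefSeq (GRCm38.p6). Libraries R5-1 and R5-2 of EO771 with C2C12 have crossed file names, and GEO's record of which file belongs to which sample was used.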

Additional observations from a re-analysis of the deposited data

Results flagged for a closer look

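Each transcript was examined in the 4 libraries of each of 3 groups for a single value far from the others, 84 groups in all, and 10 stood out. Chance flags about 1 in 20 groups. Of the 10, 7 were values of MLg alone R3-2. Serpina3h (166 CPM, others 75.4 to 87.0), Plagl1 (92.1 CPM, others 68.7 to 71.1) and Fendrr (25.1 CPM, others 21.0 to 21.5) were high in it. Gria3 (24.3 CPM, others 41.8 to 44.8), Pcdh17 (20.0 CPM, others 38.0 to 39.1), Bhlhe22 (18.5 CPM, others 35.9 to 38.7) and AC133103.1 (26.3 CPM, others 28.9 to 29.3) were low in it. In EO771 with MLg, R7-1 was high for Gm53 (2.01 CPM, others 0.903 to 0.993) and Entpd1 (2.695 CPM, others 2.45 to 2.48), and R5-1 was high for Serpina3f (0.723 CPM, others 0.228 to 0.299).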

How the results depend on the processing

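Against MLg alone, 3 transcripts were called higher and 6 lower in MLg with EO771. The number higher was 6 with EO771 counts subtracted, 0 in the fit of all 28 libraries, 5 with the replicate block and 5 without MLg alone R3-2 and MLg with EO771 R5-1 together, and 2 to 4 with single libraries left out. The number lower was 1, 12 and 10 in the last 3 of these fits, 3 of 14 with at least 50 CPM in MLg alone, and 6 to 10 with single libraries left out. The cause was not tested. Plagl1 kept its call in every alternative run.

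The R number is not stated to mark a shared culture. Of MLg with EO771 and MLg alone, R5 and R6 are shared, and R7-1 and R3-2 have no partner, so the block compares only the others. Over 10590 genes the deviations of same-numbered libraries correlated at -0.33 for R5 and at 0.011 to 0.24 for the 4 pairings in R6, so the numbers were not taken to pair the samples. The block kept all 9 calls and added Hs6st2, Gm53, Phactr2, Gria3, Gata6 and Fendrr as lower and Il1rl2 and Serpina3f as higher. In MLg with EO771 and EO771 with MLg, same-label correlations were 0.187, -0.055, -0.096 and -0.084 for R6-1, R5-1, R6-2 and R7-1 over 10615 genes. The block changed no call in the 3 other comparisons, where the same 17, 28 and 28 transcripts were called.

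In EO771 with MLg against EO771 with C2C12, 17 were called higher, 28 in the fit of all libraries and 27 with no filter, since both tested more of them, and 17 to 24 with single libraries left out. With at least 50 CPM in MLg alone, all 14 remaining transcripts were higher in MLg with EO771 than in EO771 with MLg and in C2C12 with EO771, and single libraries left out changed neither count from 28. The percent in EO771 with MLg was 1.53% to 1.83% with single labels left out and 1.66% as a ratio of group means.

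Directions near 0 turned. With EO771 counts subtracted, Olfml1 was at 0.14, Rnf130 at 0.10 and the median of the 28 at 0.047. Serpina3i was at -0.0026 with DESeq2, -0.0021 with other size factors, -0.025 in the fit of all libraries and -0.024 with no filter. With the replicate block Serpina3h was at 0.21, Olfml1 at 0.011 and Bhlhe22 at -0.021. Without the 2 libraries together Serpina3h was at 0.26, Olfml1 at 0.059 and Bhlhe22 at -0.27. With single libraries left out the ranges were -0.098 to 0.23 for Serpina3i, -0.069 to 0.045 for Olfml1, -0.13 to 0.035 for Rnf130, -0.29 to 0.21 for Serpina3h, -0.16 to 0.16 for Bhlhe22 and -0.0028 to 0.25 for Pcdh17. In EO771 with MLg the depth gave 54 to 492 counts per transcript over 4 libraries, which limits single percents.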

Other observations

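Other gene lists were examined in MLg with EO771 against MLg alone. For all 16823 genes tested, the shares called were 9.89% higher and 4.81% lower. No list was tested as a set. All 15 interferon response genes were higher in MLg with EO771 than in MLg alone, with a median log2 fold change of 3.97 and summed levels of 1141 to 1896 CPM in MLg with EO771 and 331 to 368 CPM in MLg alone. Ifit1, an antiviral effector gene, averaged 199 CPM in MLg with EO771 and 4.12 CPM in MLg alone. None of the 28 was on that list. Of 9 smooth muscle and pericyte markers tested, 3 were lower (Acta2, Lmod1 and Mcam) and 1 higher (Cnn1, at 1.04 CPM in MLg with EO771 and 0.539 CPM in MLg alone). Of 6 alveolar and lipofibroblast markers tested, 2 were higher (Ces1d and Fgf10) and 1 lower (Npnt). Fgf10, a growth factor gene of lung mesenchyme, averaged 62.9 CPM in MLg with EO771 and 48.4 CPM in MLg alone (log2 fold change 0.40, adjusted p = 0.0102). Of 12 TGF-beta response and myofibroblast genes tested, 2 were higher (Postn and Cnn1), 1 was lower (Acta2) and 9 were not called.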
